A study of Cloeon viridulum with 15 samples.

Results

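The enzymes that break down the amino acid tyrosine were followed through the life stages of the mayfly Cloeon viridulum, as 4 assembled transcripts (unigenes) of 91881 in all. The rule took listed unigenes with an arthropod best protein hit whose annotation names tyrosine aminotransferase, 4-hydroxyphenylpyruvate dioxygenase or homogentisate 1,2-dioxygenase. It gave 2 unigenes of tyrosine aminotransferase (13_Contig_6703, 3666 bp, and 13_Contig_14021, 1957 bp), 1 of 4-hydroxyphenylpyruvate dioxygenase (13_Contig_4912, 1546 bp) and 1 of homogentisate 1,2-dioxygenase (13_Contig_8067, 2843 bp). The best hit of 13_Contig_14021 is a protein of the kissing bug Rhodnius prolixus, and those of the other 3 are proteins of the termite Zootermopsis nevadensis. The list was drawn up with stage results known, so its members count as chosen by their own read counts in these libraries. Their levels and changes are therefore a description and carry no test.

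Whole-body RNA was read from the young larva, the mature larva, the subimago (the winged stage that leaves the water and moults once more), the imago (the sexually mature adult) and a mixture of all these stages, with 3 libraries in each of the 5 groups. The animals were wild mayflies, collected as young larvae and kept indoors with pond water and plants, and the later stages were reared from them. Each library was a pool of 10 young larvae, or of 6 later-stage animals (3 males and 3 females), or, for the mixture, of 5 young larvae and 2 animals, a male and a female, of each later stage. No group carried a drug, a transgene or another treatment, and no age in days is given in the sources used here.

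In animals, tyrosine comes from food and from phenylalanine, which phenylalanine hydroxylase converts to it. Tyrosine aminotransferase takes the amino group off tyrosine to give 4-hydroxyphenylpyruvate, 4-hydroxyphenylpyruvate dioxygenase turns that into homogentisate, and homogentisate 1,2-dioxygenase opens its ring, after which later enzymes yield fumarate and acetoacetate. The same tyrosine is the source of dopa and dopamine, from which insects make the agents that harden and darken the cuticle, and in blood-feeding insects such as Rhodnius the breakdown enzymes clear the tyrosine set free from the meal. Mayfly larvae feed, whereas subimagoes and imagoes do not.

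The 15 libraries held between 36550269 and 74837923 assigned reads, and 1 unigene without a listed protein name, First_Contig81, took 34.3% of the reads in mixture replicate 3, 21.5% in subimago replicate 3 and 18.5% in imago replicate 2. Mature larva replicate 1 stood apart from its group. It had reads on 75863 unigenes against 46421 and 47983 in the other 2 libraries of that stage, and its share of reads on protist or fungal hits was 2.45% against 0.193% and 0.275%, where young larvae had 1.74% to 8.00%. The members' changes to and from mature larvae are therefore given with and without that library, and so are calls on the other unigenes named that it alters. Levels are CPM, read counts relative to library size after TMM scaling, a scaling that a few very abundant unigenes affect little. Other scalings shifted the log2 changes of unigenes with reads in both groups by a median of up to 0.52. That was the median shift between mature and young larvae when library totals alone were used, and single unigenes shifted by different amounts. With library totals alone the log2 change of 13_Contig_6703 between larval stages went from -0.92 to -1.43. That of 13_Contig_4912 was -2.01, and no other scaling took it below -2.36.

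All 4 members passed the filter on low counts, and each was lowest in the subimago. From young larva to subimago the mean CPM of homogentisate 1,2-dioxygenase went from 33.3 to 0.468, that of 4-hydroxyphenylpyruvate dioxygenase from 34.7 to 0.752, that of tyrosine aminotransferase 13_Contig_14021 from 6.16 to 0.337 and that of 13_Contig_6703 from 64.9 to 7.12. In the imago the levels were again between 49.8% and 108% of the young larva mean, against 1.41% to 11.0% in the subimago. The winged stage before the last moult thus had the lowest level of every step measured, and the winged stage after it had levels near those of larvae. In such whole-body RNA, fewer cells that make an enzyme and less RNA per cell cannot be told apart.

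**Figure D1:**
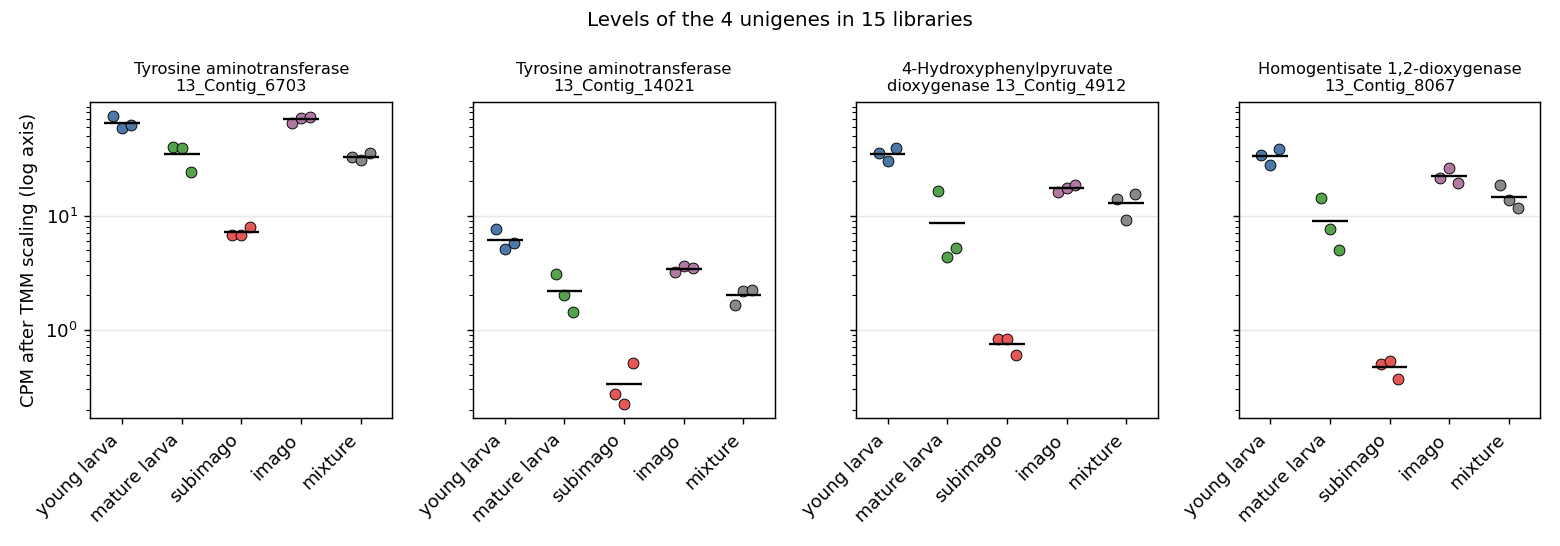
CPM after TMM scaling, on a log axis, of each of the 4 unigenes in the 15 libraries; points are libraries and black lines are group means (n = 3). In each panel the 3 subimago points lie below those of the other groups, and the imago points lie back at or near the larval range.

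Tyrosine aminotransferase makes the first step. Its more abundant unigene, 13_Contig_6703, stood at 74.1, 58.1 and 62.4 CPM in the young larva libraries and at 40.2, 38.7 and 24.1 CPM in mature larvae. It stood at 6.70, 6.77 and 7.88 CPM in subimagoes, at 65.0, 71.2 and 73.5 CPM in imagoes and at 32.4, 30.5 and 35.2 CPM in the mixture. Imago and young larva libraries overlapped, as did mature larva and mixture libraries, and these pairs did not differ beyond their spread, while the subimago lay below every other library. The mean was 69.9 ± 4.37 CPM (SD, n = 3) in imagoes and 64.9 ± 8.26 in young larvae, followed by 34.3 ± 8.92 in mature larvae, 32.7 ± 2.33 in the mixture and 7.12 ± 0.661 in subimagoes. It was the only one of the 4 whose imago mean was above its young larva mean.

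The second unigene of the enzyme, 13_Contig_14021, annotated as a putative tyrosine aminotransferase, stood at 7.56, 5.13 and 5.80 CPM in young larvae and at 3.10, 2.00 and 1.44 CPM in mature larvae. It stood at 0.274, 0.224 and 0.514 CPM in subimagoes, at 3.21, 3.63 and 3.46 CPM in imagoes and at 1.65, 2.18 and 2.22 CPM in the mixture. The order was young larva, imago, mature larva, mixture and subimago, and only mature larva and mixture overlapped. The subimago values rest on 13, 11 and 18 reads, 42 in all (exact 95% Poisson interval 30.3 to 56.8, which covers counting error only). Per length, the level of 13_Contig_14021 was a small part of that of 13_Contig_6703 at every stage, with means of 3.83 against 21.6 RPKM (reads relative to the length of the unigene and to the library's total) in young larvae and 0.168 against 1.98 RPKM in subimagoes. Whether the 2 unigenes are separate genes, and how reads were divided between them, is not given in the sources used here.

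4-Hydroxyphenylpyruvate dioxygenase, the enzyme of the second step, stood at 35.5, 29.9 and 38.8 CPM in young larvae. Mature larva replicate 1 had 16.3 CPM, against 4.33 and 5.25 CPM in replicates 2 and 3. Subimagoes had 0.822, 0.833 and 0.599 CPM, imagoes 16.2, 17.3 and 18.4 CPM and mixtures 13.9, 9.05 and 15.5 CPM. Young larvae were highest and subimagoes lowest without overlap, and between them the range of the mature larvae took in that of the mixture and, through replicate 1, reached the imagoes. The means were 34.7 ± 4.51 CPM in young larvae, 17.3 ± 1.09 in imagoes, 12.8 ± 3.37 in the mixture, 8.62 ± 6.65 in mature larvae and 0.752 ± 0.132 in subimagoes (SD, n = 3). The 3 subimago libraries held 101 reads of this unigene in all (exact 95% Poisson interval 82.3 to 123).

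Homogentisate 1,2-dioxygenase, the enzyme that opens the ring, stood at 33.8, 27.5 and 38.6 CPM in young larvae and at 14.3, 7.60 and 4.96 CPM in mature larvae. It stood at 0.506, 0.528 and 0.371 CPM in subimagoes, at 21.3, 26.1 and 19.3 CPM in imagoes and at 18.6, 13.6 and 11.6 CPM in the mixture. Young larva, imago and subimago libraries overlapped with no other group, whereas mature larva and mixture libraries overlapped. The means were 33.3 ± 5.54 CPM in young larvae, 22.2 ± 3.47 in imagoes, 14.6 ± 3.61 in the mixture, 8.96 ± 4.81 in mature larvae and 0.468 ± 0.0851 in subimagoes (SD, n = 3). The subimago values rest on 24, 26 and 13 reads, 63 in all (exact 95% Poisson interval 48.4 to 80.6).

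The first comparison is that of mature with young larvae. All 4 members were lower in mature larvae. The log2 change (± SE of the fit over all unigenes) was -0.92 ± 0.18 for tyrosine aminotransferase 13_Contig_6703, -1.49 ± 0.35 for 13_Contig_14021, -2.01 ± 0.42 for 4-hydroxyphenylpyruvate dioxygenase and -1.89 ± 0.34 for homogentisate 1,2-dioxygenase. The 3 mature larva libraries lay below the 3 young larva libraries for all 4, where 20.3% of all 34131 unigenes tested were lower without overlap, and edgeR's quasi-likelihood test called all 4 lower, where it called 9.73% of all. The list was chosen with such values known, so nothing is read from these counts. Without mature larva replicate 1 the changes were -1.01, -1.80, -2.82 and -2.37 in the same order. That library had 3.40 times the mean CPM of the other 2 for 4-hydroxyphenylpyruvate dioxygenase, 2.28 times for homogentisate 1,2-dioxygenase, 1.80 times for 13_Contig_14021 and 1.28 times for 13_Contig_6703.

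From mature larva to subimago all 4 members were lower again, the enzyme that opens the ring furthest; differences between the members were not tested. The log2 change was -2.27 ± 0.18 for tyrosine aminotransferase 13_Contig_6703 and -2.70 ± 0.37 for 13_Contig_14021, which is 4.82-fold and 6.50-fold lower. It was -3.51 ± 0.45, or 11.4-fold lower, for 4-hydroxyphenylpyruvate dioxygenase and -4.25 ± 0.38, or 19.0-fold lower, for homogentisate 1,2-dioxygenase. The subimago libraries lay below the mature larva libraries for all 4, against 18.2% of all unigenes, and all 4 were called lower, against 14.2% of all. Without mature larva replicate 1 the changes were -2.13, -2.35, -2.65 and -3.71, so that 4-hydroxyphenylpyruvate dioxygenase moved by over 1.5 times in fold and homogentisate 1,2-dioxygenase was still the furthest down. Against young larvae, 2 stages earlier, the subimago was lower by log2 changes of -3.19 ± 0.19, -4.19 ± 0.39, -5.52 ± 0.50 and -6.14 ± 0.42, where 40.5% of all unigenes were lower without overlap and 35.7% were called lower, as all 4 members were.

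From subimago to imago, across the last moult, all 4 members were higher, again with the ring-opening enzyme furthest. Homogentisate 1,2-dioxygenase was 47.0-fold higher, a log2 change of 5.56 ± 0.41, and 4-hydroxyphenylpyruvate dioxygenase was 22.9-fold higher, a log2 change of 4.52 ± 0.47. The unigenes of tyrosine aminotransferase were 9.82-fold (3.30 ± 0.19 on the log2 scale, 13_Contig_6703) and 10.2-fold (3.35 ± 0.38, 13_Contig_14021) higher. Imago libraries lay above subimago libraries for all 4, against 18.9% of all unigenes, and all 4 were called higher, against 6.74% of all. Of 11941 tested unigenes with an arthropod best hit, 15 had a larger log2 change than homogentisate 1,2-dioxygenase, 36 than 4-hydroxyphenylpyruvate dioxygenase, 92 than 13_Contig_14021 and 96 than 13_Contig_6703. At the earlier transitions more unigenes lay beyond the members, since 1604 to 2973 of the 11941 were further down than each of them from young to mature larva and 805 to 1401 from mature larva to subimago. This comparison shares the subimago libraries with the one before it, so a low subimago value enters both.

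**Figure D2:**
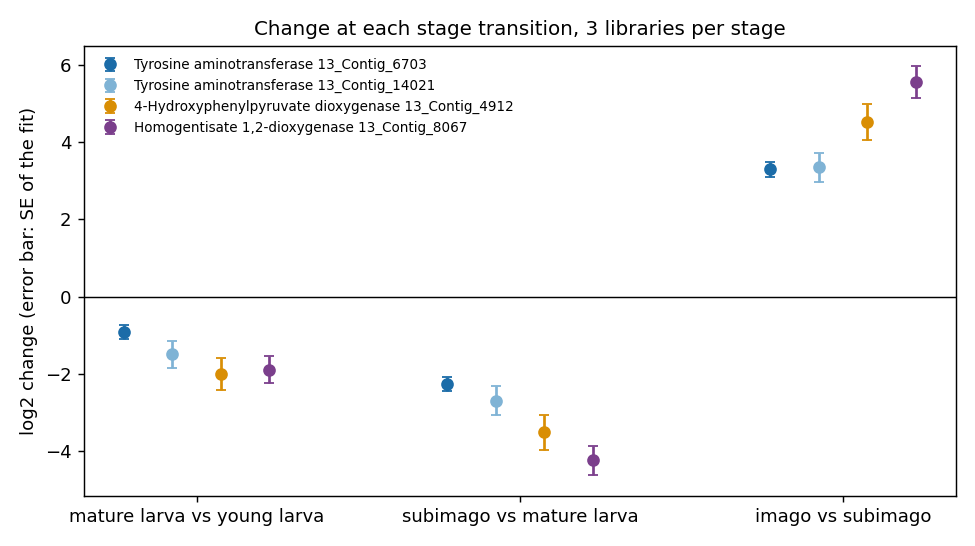
Log2 change of each of the 4 unigenes at the 3 successive stage transitions; points are values of the edgeR fit and bars are its SE, with 3 libraries per stage. All points lie below 0 at the first 2 transitions and above 0 at the last, with homogentisate 1,2-dioxygenase reaching -4.25 and 5.56.

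A subimago below both of its neighbouring stages without overlap was found for 1193 of the 34131 unigenes (3.50%) and for 569 of the 11941 with an arthropod hit (4.77%), the 4 members among them. A subimago below all 3 other stages was found for 1002 unigenes (2.94%), again with all 4 members. The imago did not match either larval stage for all members. Against mature larvae the imago was higher by log2 changes of 1.03 ± 0.18 for 13_Contig_6703, 0.65 ± 0.34 for 13_Contig_14021, 1.00 ± 0.41 for 4-hydroxyphenylpyruvate dioxygenase and 1.31 ± 0.34 for homogentisate 1,2-dioxygenase. Libraries of the 2 stages did not overlap for 3 members, against 21.8% of all unigenes higher without overlap, and 2 were called higher, against 16.5%. Tyrosine aminotransferase 13_Contig_14021 was not called, and the libraries of 4-hydroxyphenylpyruvate dioxygenase overlapped through mature larva replicate 1. Without that library these changes were 1.17, 1.01, 1.86 and 1.84.

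Against young larvae the imago was lower for 3 members, by log2 changes of -0.84 ± 0.34 for 13_Contig_14021, -1.01 ± 0.41 for 4-hydroxyphenylpyruvate dioxygenase and -0.58 ± 0.33 for homogentisate 1,2-dioxygenase. All 3 were lower without overlap, against 45.9% of all unigenes, and 2 were called lower, against 41.5%. Tyrosine aminotransferase 13_Contig_6703 had a log2 change of 0.11 ± 0.18, with overlapping libraries. Its direction depended on the scaling. The log2 change was -0.41 with TMM factors computed on arthropod hits and -0.63 with a filter of at least 10 CPM in 3 libraries. Under these settings the log2 changes of unigenes kept in both fits, with reads in both stages, shifted by medians of -0.51 and -0.74.

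The proportions among the members also differed between stages. Compared per length within a library, 4-hydroxyphenylpyruvate dioxygenase had 1.14, 1.22 and 1.48 times the RPKM of tyrosine aminotransferase 13_Contig_6703 in young larvae. The ratio was 0.960, 0.266 and 0.517 in mature larvae, 0.291, 0.292 and 0.180 in subimagoes, and 0.591, 0.577 and 0.593 in imagoes. Young larvae were thus the only group of the 4 stages in which the second enzyme's unigene was above the first's in every library, and subimagoes lay below imagoes but overlapped with mature larva replicate 2. In the mixture the ratio was 1.02, 0.703 and 1.05.

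The ratio of homogentisate 1,2-dioxygenase to 4-hydroxyphenylpyruvate dioxygenase, the 2 neighbouring steps, varied less. It was 0.518, 0.501 and 0.540 in young larvae, 0.478, 0.954 and 0.514 in mature larvae, 0.335, 0.345 and 0.337 in subimagoes and 0.715, 0.818 and 0.571 in imagoes. The subimago libraries were lowest and the imago libraries lay above those of young larvae, while the range of the mature larvae took in both young larvae and imagoes. In subimagoes this ratio rests on 13 to 26 reads of homogentisate 1,2-dioxygenase and 21 to 41 reads of 4-hydroxyphenylpyruvate dioxygenase per library. The ratio of homogentisate 1,2-dioxygenase to tyrosine aminotransferase 13_Contig_6703 had means of 0.665 ± 0.115 in young larvae, 0.326 ± 0.115 in mature larvae (0.260 without replicate 1), 0.0862 ± 0.0222 in subimagoes and 0.411 ± 0.0674 in imagoes (SD, n = 3), with subimagoes below all other libraries.

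The ratio of the 2 tyrosine aminotransferase unigenes, 13_Contig_14021 to 13_Contig_6703, was 0.177 ± 0.0131 in young larvae, 0.118 ± 0.0244 in mature larvae, 0.0869 ± 0.0314 in subimagoes and 0.0920 ± 0.00369 in imagoes (SD, n = 3). Young larvae were above all libraries of the other stages. Subimago libraries overlapped with both mature larvae and imagoes, while mature larvae lay just above imagoes, with a lowest ratio of 0.0968 against a highest of 0.0954. Both unigenes went down into the subimago and up into the imago, while the share of the less abundant one did not return to its young larva value in the imago.

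**Figure D3:**
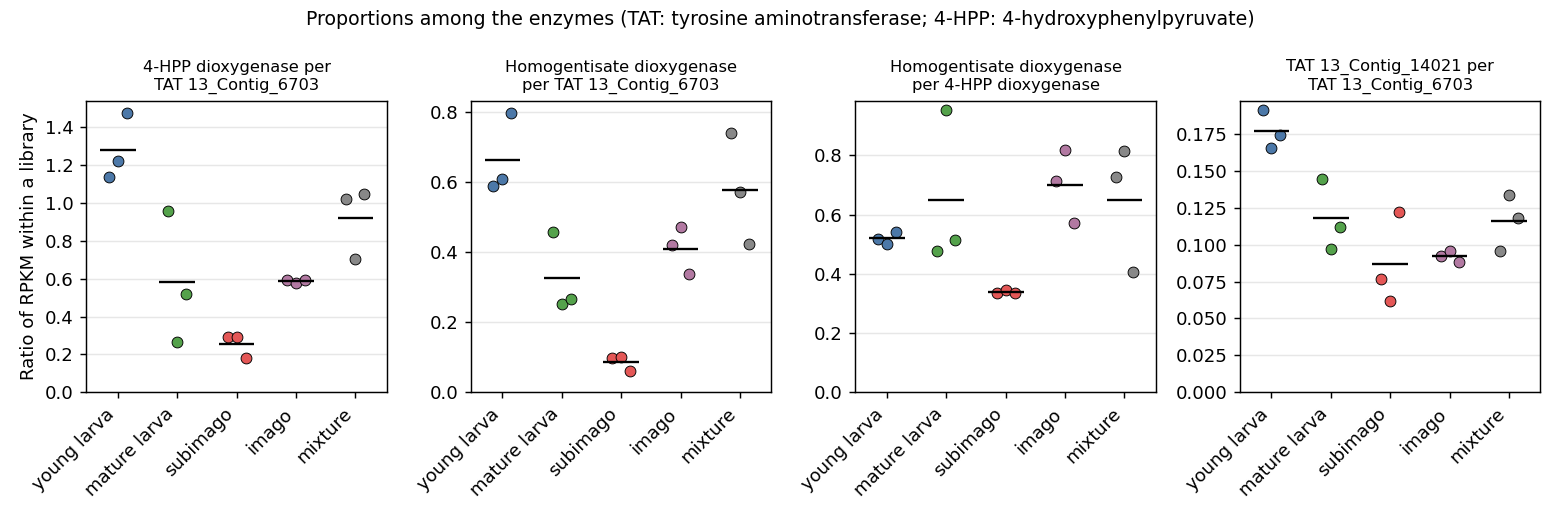
Ratio of the deposited RPKM of pairs of members within each library; points are libraries and black lines are group means (n = 3). The subimago points are lowest in the 2 middle panels, and in the panel for 4-hydroxyphenylpyruvate (4-HPP) dioxygenase the young larva points lie above 1.

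Across the 12 libraries of the 4 stages, the log2 CPM of the members were correlated with each other, with Pearson's r from 0.950 (4-hydroxyphenylpyruvate dioxygenase with 13_Contig_6703) to 0.987 (4-hydroxyphenylpyruvate dioxygenase with homogentisate 1,2-dioxygenase). These values describe points that fall into 4 stages and share library depth. Among 5078 tested unigenes with an arthropod hit, an informative name and at least 5 CPM, the one most like 13_Contig_14021 (r = 0.989), 4-hydroxyphenylpyruvate dioxygenase (r = 0.985) and homogentisate 1,2-dioxygenase (r = 0.977) was the same, pro-phenol oxidase subunit 2 (13_Contig_5595). Phenol oxidases oxidise tyrosine-derived phenols in melanin formation and immune defence. The level of 13_Contig_5595 was 90.5, 52.0 and 57.1 CPM in young larvae, 30.1, 10.1 and 8.25 CPM in mature larvae, 1.07, 0.935 and 0.999 CPM in subimagoes and 15.3, 32.0 and 28.3 CPM in imagoes.

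For the same 3 members the second was seryl-tRNA synthetase (13_Contig_408, r = 0.969 to 0.978), which charges the serine tRNA. The third differed, being a proteasome alpha subunit (13_Contig_451, r = 0.969) for 13_Contig_14021, the calcium channel ryanodine receptor (13_Contig_2768, r = 0.970) for 4-hydroxyphenylpyruvate dioxygenase and programmed cell death protein 4 (13_Contig_3944, r = 0.965) for homogentisate 1,2-dioxygenase. Tyrosine aminotransferase 13_Contig_6703 had other nearest unigenes, namely the wing selector gene vestigial (13_Contig_18470, r = 0.963), furry (13_Contig_9657, r = 0.954) and programmed cell death protein 4 (r = 0.951). These correlate over stage shape and not size, since programmed cell death protein 4 went only from 135 CPM in young larvae to 66.3 CPM in subimagoes and 117 CPM in imagoes.

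The mixture is a pool of all 4 stages, and its mean lay between the lowest and the highest stage for each member. It was 2.02 CPM for 13_Contig_14021 against 3.88 CPM for the stage means weighted by the number of animals in the pool, 32.7 against 49.7 for 13_Contig_6703, 12.8 against 20.6 for 4-hydroxyphenylpyruvate dioxygenase and 14.6 against 20.9 for homogentisate 1,2-dioxygenase. All 4 were below the weighted mean. The share of RNA that each animal gave to the pool is not given in the sources used here.

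The annotation names the 3 enzymes in 17 unigenes, of which 13 are not members. A second 4-hydroxyphenylpyruvate dioxygenase with an arthropod hit (13_Contig_20123, 1301 bp, best hit the butterfly Papilio xuthus) is not on the list. It had 145 reads in all libraries together, 108 of them in mixture replicate 1, and did not pass the filter on low counts. A short fragment with a limpet hit (13_Contig_49863, 379 bp) had 38 reads in young larvae, 16 in mature larvae, 0 in subimagoes, 6 in imagoes and 9 in the mixture. The remaining 11 unigenes, 339 to 1374 bp long, have protist or fungal hits, such as the ciliate Tetrahymena, and 2 of them passed the filter. They had 536 reads in young larvae, 200 in mature larvae (181 of these in replicate 1), 18 in subimagoes, 5 in imagoes and 14 in the mixture. The young larva libraries held 10157 reads of 13_Contig_6703 and 956 of 13_Contig_14021, and the mature larva libraries 5418 and 371.

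The other enzymes around this chain were tested, as they are not members. The lists used from here on were, however, also drawn up with earlier results of these data known. Their calls and p-values therefore describe these data and are not independent support. Of 8 enzymes of phenylalanine conversion, of its pterin cofactor and of the last steps after homogentisate, 4 were found by name among animal hits, with 6 unigenes of which 5 were tested. Names for maleylacetoacetate isomerase and fumarylacetoacetase, the steps after homogentisate 1,2-dioxygenase, were not found among animal hits. Phenylalanine-tryptophan hydroxylase (13_Contig_16980) stood at 65.8, 52.8 and 65.5 CPM in young larvae, 26.4, 5.03 and 1.73 CPM in mature larvae, 25.1, 10.1 and 12.1 CPM in subimagoes and 11.4, 14.6 and 15.8 CPM in imagoes. It was lower in mature than in young larvae (log2 change -2.47 ± 0.75, adjusted p = 0.0218 by edgeR's quasi-likelihood test with Benjamini-Hochberg adjustment). In the later stages its libraries overlapped, with log2 changes of 0.51 ± 0.71 into the subimago and -0.18 ± 0.71 into the imago (adjusted p = 0.597 and 0.980 by the same edgeR test). The overlap of mature larvae with the later stages came from mature larva replicate 1. Without that library the log2 changes were -4.16 into the mature larva and 2.24 into the subimago, and the second was then called (adjusted p = 0.0128 by edgeR). The call between larval stages was lost without young larva replicate 1, young larva replicate 3 or mature larva replicate 2 (adjusted p = 0.0504, 0.0524 and 0.0990 by edgeR).

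The enzymes that make and recycle the pterin cofactor of that hydroxylase had no low value in the subimago in common. Sepiapterin reductase (13_Contig_2213) rose from 34.9 ± 2.47 CPM in young larvae to 54.3 ± 7.76 in mature larvae (log2 change 0.64 ± 0.14, adjusted p = 0.00324 by edgeR) and stood at 62.9 ± 5.32 CPM in subimagoes and 86.5 ± 3.11 in imagoes (SD, n = 3). With library totals alone the first change was 0.10 and not called. 6-Pyruvoyl tetrahydropterin synthase (13_Contig_3360) fell into the subimago by 1.25 ± 0.32 on the log2 scale (adjusted p = 0.0235 by edgeR), a call lost without subimago replicate 2 or 3 (adjusted p = 0.104 and 0.0786 by edgeR). Pterin-4-alpha-carbinolamine dehydratase (13_Contig_4383) had 62.6, 62.0, 65.7 and 75.1 CPM in the successive stages, and no call at any of the 3 transitions. Its change between larval stages, -0.01 on the log2 scale, was called lower with TMM factors on arthropod hits (-0.26), library totals without the most abundant unigene (-0.54), a filter of at least 10 CPM in 3 libraries (-0.45) and DESeq2 (-0.20). Its change into the imago, 0.19, was called higher with DESeq2 size factors (0.31), with only the 2 groups compared (0.20) and with DESeq2 (0.31). Over the list, 1 unigene rose (2 without mature larva replicate 1 or subimago replicate 1, the other being 13_Contig_3360) and 1 fell between larval stages, where 25.3% of all unigenes were called higher and 9.73% lower. Into the subimago 1 fell, against 14.2% of all. Into the imago 1, sepiapterin reductase, rose, against 6.74% of all, a call that was lost without any 1 library of young larvae or imagoes or without subimago replicate 1 or 2 (adjusted p from 0.0545 to 0.188 by edgeR). Without mature larva replicate 1, 1 rose into the subimago. The list's median log2 changes were 0.64, 0.08 and 0.28, against -0.05, -0.28 and -0.02 over all unigenes tested. The edgeR test found 0 that rose into the subimago and 0 that fell into the imago, also at an unadjusted p under 0.05, and DESeq2 called 0 in both.

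Other enzymes use tyrosine for tanning the cuticle and for amines. The most abundant unigenes of laccase 2, dopa decarboxylase and yellow were highest in the subimago, the stage in which the members were lowest. They were picked by mean CPM over all 15 libraries, which a peak in 1 stage raises, so the choice favours such peaks. Into the subimago, 4 of 6 tested laccases, 1 of 4 decarboxylases and 2 of 29 yellow unigenes were called higher, and 7 yellow unigenes lower. Laccase 2 (13_Contig_2049), the oxidase that cross-links the cuticle in other insects, stood at 307, 391 and 503 CPM in young larvae, 105, 87.0 and 15.6 CPM in mature larvae, 990, 627 and 738 CPM in subimagoes and 80.3, 91.8 and 55.9 CPM in imagoes. Its libraries in the subimago lay above all others of the 4 stages. It rose into the subimago by a log2 change of 3.50 ± 0.75 and fell into the imago by 3.37 ± 0.74 (adjusted p = 0.0119 and 0.00948 by edgeR), the first call being lost with no filter on low counts (log2 change 3.39, adjusted p = 0.0532 by edgeR) and the second without imago replicate 3 (adjusted p = 0.0539 by edgeR).

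Aromatic-L-amino-acid decarboxylase (13_Contig_1393), which makes dopamine from dopa, stood at 19.2, 15.8 and 16.8 CPM in young larvae, 7.54, 6.17 and 3.66 CPM in mature larvae, 76.7, 42.2 and 42.6 CPM in subimagoes and 1.65, 1.27 and 1.13 CPM in imagoes. None of these 4 stages overlapped. Its log2 change was 3.22 ± 0.50 into the subimago and -5.32 ± 0.55 into the imago (adjusted p = 0.00273 and 8.71e-05 by edgeR). Yellow (13_Contig_1572), a protein needed for dark pigment in flies, rose by 4.45 ± 0.78 into the subimago and fell by 6.74 ± 0.87 on the log2 scale into the imago (adjusted p = 0.00508 and 0.000370 by edgeR), with subimago libraries at 242, 110 and 73.2 CPM and imago libraries at 1.36, 1.40 and 1.20 CPM. The beta-alanyl conjugating enzyme (13_Contig_6628), named ebony in flies, which joins beta-alanine to dopamine, had means of 12.0, 21.7, 37.5 and 6.06 CPM in the successive stages and fell into the imago by 2.63 ± 0.40 (adjusted p = 0.000874 by edgeR). Its change between larval stages, 0.85 on the log2 scale, was called only without mature larva replicate 1 (1.05, adjusted p = 0.0413 by edgeR). Into the subimago its log2 change of 0.79 was not called (adjusted p = 0.129 by edgeR), and the libraries of the stages overlapped. That change was called with library totals without the most abundant unigene (1.23, adjusted p = 0.0251 by edgeR).

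The other 3 unigenes named from this list did not peak in the subimago. Arylalkylamine N-acetyltransferase (13_Contig_3553) had means of 73.3, 103, 102 and 151 CPM in the successive stages, and its rise into the imago (log2 change 0.57 ± 0.13, adjusted p = 0.0124 by edgeR) was not called without subimago replicate 1 or imago replicate 3 (adjusted p = 0.0685 and 0.0633 by edgeR). Prophenoloxidase (13_Contig_11781) had 7.48, 2.63, 0.878 and 1.64 CPM and no edgeR call at the 3 transitions. DESeq2 called it lower at the first 2, with log2 changes of -1.68 and -1.61 (adjusted p = 0.0287 and 0.0456). By edgeR the first was also called without young larva replicate 2 (-1.83) or mature larva replicate 1 (-2.42), where the second change was -0.61, and the second without mature larva replicate 2 (-2.13), with adjusted p = 0.0422, 0.00470 and 0.0350. Tyrosine decarboxylase (13_Contig_39963) had 0.589, 0.369, 0.389 and 0.203 CPM and no call at the 3 transitions.

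**Figure D4:**
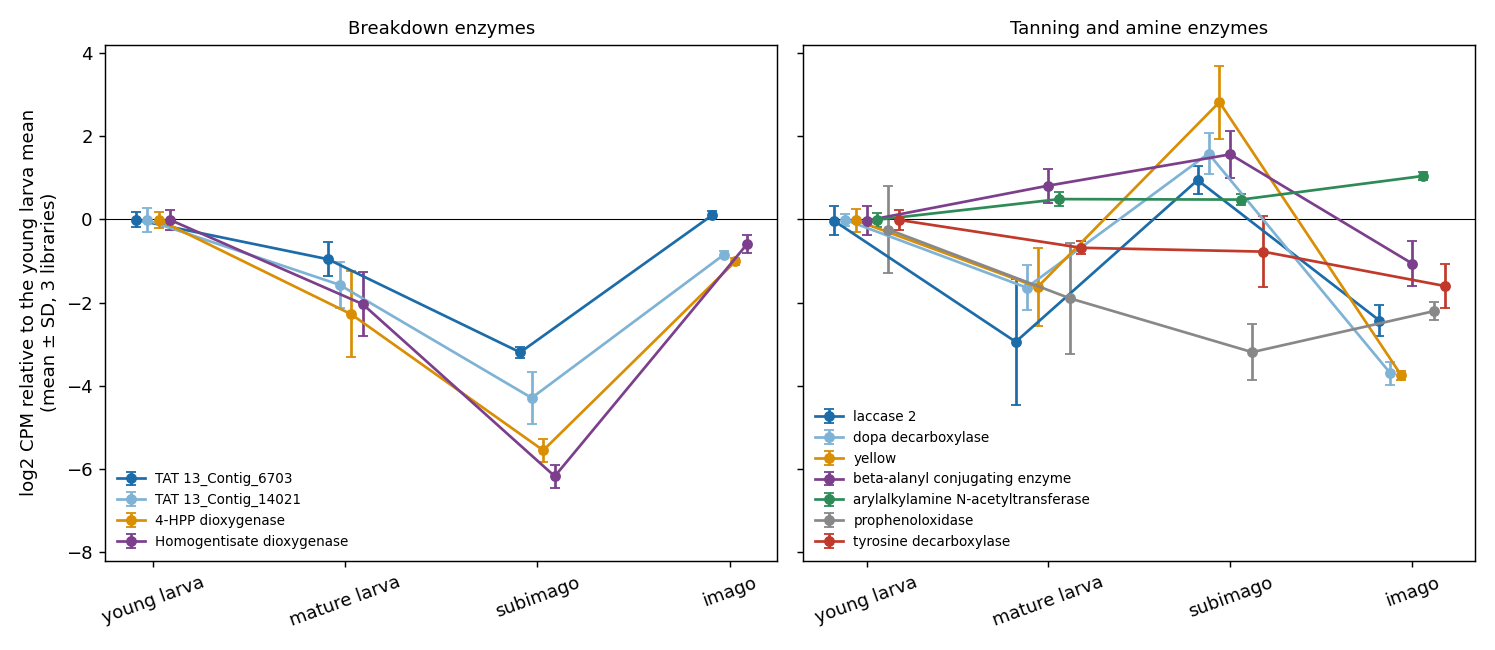
Log2 CPM relative to each unigene's mean in young larvae, mean ± SD of 3 libraries. Left, the 4 breakdown unigenes (TAT is tyrosine aminotransferase, 4-HPP is 4-hydroxyphenylpyruvate). Right, the most abundant unigene on the list for each of the 7 tested tanning and amine enzymes. The more abundant pro-phenol oxidase subunit 2 (13_Contig_5595), lowest in the subimago, is not on the list and not drawn. It was named for its likeness to members, so that low value follows from the choice. All 4 lines on the left have their lowest point in the subimago, where laccase 2, dopa decarboxylase, yellow and the beta-alanyl conjugating enzyme have their highest. For the beta-alanyl conjugating enzyme the rise from mature larvae was not called.

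The whole list of tanning and amine enzymes held 62 unigenes, of which 44 were tested, 29 of these being members of the yellow family. Between larval stages 5 rose and 14 fell, where 25.3% of all unigenes were called higher and 9.73% lower. The count of 14 became 26 without mature larva replicate 1, and 8, 7, 6 and 9 without young larva replicates 1 and 3 and mature larva replicates 2 and 3. Into the subimago 7 rose (4 of the 6 laccases, 1 decarboxylase and 2 of the yellow family) and 7 fell (all of the yellow family), against 8.98% and 14.2% of all. The 7 that fell became 1 without mature larva replicate 1 or any 1 subimago library and 4 without any 1 library of young larvae, imagoes or the mixture. The 7 that rose became 4 without subimago replicate 1. Into the imago 1 rose and 8 fell, against 6.74% and 9.26%, and the 1 became 3 and 2 without mature larva replicates 1 and 3, and 0 without subimago replicate 1 or imago replicate 3. The median log2 changes of the list were -1.80, -0.70 and -0.14 at the 3 transitions, against -0.05, -0.28 and -0.02 over all unigenes tested. Both unigenes named tyrosine hydroxylase, which makes dopa from tyrosine, were below the filter on low counts. The annotation of 13_Contig_5595 spells its enzyme as separate words and is not on this list. That unigene had means of 66.5, 16.2, 1.00 and 25.2 CPM in the successive stages. It was thus more abundant than prophenoloxidase 13_Contig_11781 and, like the members, lowest in the subimago. It was named for its likeness to 3 members over these same libraries, so its low subimago value follows from that choice.

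Enzymes that break down other amino acids form the third list. Of 35 unigenes with an animal best hit, arthropod or not, 20 were tested. Named below, 13_Contig_2909 has its best hit in Capitella teleta. The aspartate aminotransferase 13_Contig_37941 has its best hit in Schistosoma haematobium, with means of 93.8 CPM in young larvae and 22.1 CPM over all libraries. Neither is an arthropod, and whether such unigenes come from the mayfly was not tested. Between larval stages 2 rose and 11 fell, against 25.3% and 9.73% of all unigenes, and into the subimago 1 rose and 5 fell, against 8.98% and 14.2%. Into the imago 6 rose and 0 fell, against 6.74% and 9.26%. Beside the 0, edgeR gave 0 at an unadjusted p under 0.05 and DESeq2 0. The median log2 changes were -0.78, -0.26 and 0.52, against -0.05, -0.28 and -0.02 over all unigenes tested. Glutamate dehydrogenase (13_Contig_6125), which takes the amino group off glutamate, fell from 356 ± 70.4 CPM in young larvae to 173 ± 18.0 in mature larvae and stood at 117 ± 8.02 in subimagoes and 186 ± 1.42 in imagoes (SD, n = 3). Its log2 changes were -1.04 ± 0.13, -0.57 ± 0.13 and 0.67 ± 0.13 (adjusted p = 4.71e-05, 0.0168 and 0.00492 by edgeR), the second being lost without mature larva replicate 1 or subimago replicate 1 or 2 (adjusted p = 0.0667, 0.0604 and 0.0504 by edgeR). The second call also depended on scaling. It was lost with library totals alone (-0.32, adjusted p = 0.319 by edgeR) and with totals without the most abundant unigene (-0.23, adjusted p = 0.413 by edgeR).

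3-Hydroxyisobutyrate dehydrogenase (13_Contig_2909), of valine breakdown, fell between larval stages by 0.87 ± 0.12 and rose into the imago by 0.91 ± 0.12 on the log2 scale (adjusted p = 0.000114 and 0.000489 by edgeR). Histidine ammonia-lyase (13_Contig_112), the first enzyme of histidine breakdown, rose into the imago by 0.97 ± 0.17 (adjusted p = 0.00217 by edgeR). Aspartate aminotransferase (13_Contig_3878) fell between larval stages by 0.77 ± 0.11 (adjusted p = 0.000160 by edgeR), with log2 changes of 0.13 ± 0.11 and 0.02 ± 0.11 at the later transitions. The lysine-degrading alpha-aminoadipic semialdehyde synthase (13_Contig_3254) rose between larval stages by 0.91 ± 0.20 (adjusted p = 0.00286 by edgeR), as did tryptophan 2,3-dioxygenase (13_Contig_2066) by 0.67 ± 0.15 (adjusted p = 0.00323 by edgeR), and neither was called with library totals alone. The last of these had 41.1, 65.2, 96.7 and 114 CPM in the successive stages, with no low value in the subimago. Tryptophan 2,3-dioxygenase was called higher into the subimago (log2 change 0.57, adjusted p = 0.0233 by edgeR). That call was lost without mature larva replicate 1 (0.48, adjusted p = 0.0894 by edgeR). It was also lost without mature larva replicate 2 or any 1 subimago library (adjusted p from 0.0600 to 0.0743 by edgeR). Leaving out mature larva replicate 1 turned the 5 that fell into the subimago into 2, and leaving out subimago replicate 1, 2 or 3 gave 2, 3 and 3. The 1 that rose became 2 without mature larva replicate 3 and 0 without any other 1 library of mature larvae or subimagoes.

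Markers of tissues moved between the stages as well. In insects the fat body is an organ of storage and of amino acid metabolism. The 9 unigenes named for fat body proteins summed to 14200 to 17481 CPM in young larvae, 541 to 4758 in mature larvae, 493 to 700 in subimagoes and 997 to 1131 in imagoes, so subimago and imago ranges did not overlap. Of the 7 tested, 5 fell and 2 rose between larval stages, where 9.73% of all unigenes were called lower and 25.3% higher. Into the subimago 2 fell and 0 rose, against 14.2% and 8.98% of all. Into the imago 1 fell and 0 rose, against 9.26% and 6.74%. The median log2 changes of the 7 were -1.69, -0.64 and 0.76, against -0.05, -0.28 and -0.02 over all unigenes tested. Of these markers, the storage protein hexamerin lay between 11685 and 14295 CPM in young larvae, between 109 and 3688 in mature larvae, between 93.9 and 108 in subimagoes and between 155 and 247 in imagoes. Hemocyanin lay at 8.50 to 11.3, 0.142 to 3.64, 0 to 0.0610 and 0.106 to 0.272 CPM in the same order. Apolipophorin lay at 2449 to 3178, 96.3 to 869, 139 to 451 and 428 to 582 CPM, so its subimago range overlapped with those of mature larvae and imagoes. The yolk protein vitellogenin ran otherwise, at 0.140 to 0.254 CPM in young larvae, 137 to 336 in mature larvae, 156 to 253 in subimagoes and 258 to 439 in imagoes. The summed CPM of the 160 midgut markers was lowest in imagoes, at 1242 to 1297 against 2430 to 3396 in subimagoes. By name they differed. Peritrophin lay at 29.2 to 30.5 CPM in imagoes against 822 to 1497 in subimagoes, and trypsin and aminopeptidase N were also lower in imagoes. Carboxypeptidase and chymotrypsin overlapped between these stages. Maltase was higher in imagoes, at 25.4 to 29.4 CPM against 18.1 to 24.1. Of the 135 tested, 34 fell and 11 rose between larval stages, where 9.73% of all unigenes were called lower and 25.3% higher. Into the subimago 39 fell and 7 rose, against 14.2% and 8.98% of all. Into the imago 27 fell and 3 rose, against 9.26% and 6.74%. The median log2 changes were -1.98, -1.75 and -0.48, against -0.05, -0.28 and -0.02 over all unigenes tested. The 31 muscle markers summed to 19886 to 29610 CPM in young larvae, 2498 to 7484 in mature larvae, 1058 to 1312 in subimagoes and 1256 to 1384 in imagoes. Of the 24 tested, 13 fell and 1 rose between larval stages. Into the subimago 11 fell and 2 rose, and into the imago 0 fell and 1 rose. The 14 eye markers (opsin and chaoptin) summed to 2200 to 2914 CPM in young larvae and 1338 to 2248 in mature larvae. They summed to 312 to 510 CPM in subimagoes and 249 to 285 in imagoes. Of the 13 tested, 4 fell and 5 rose between larval stages. Into the subimago 7 fell and 0 rose, and into the imago 5 fell and 1 rose. The part of these tissues in the members' levels was not tested.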

How the data were processed

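Read counts per unigene were deposited by the authors for every library, beside RPKM values that the authors scaled by unigene length and library total. Per the labels' protocols, low-quality and ribosomal reads were removed, and CLC Genomics Workbench followed by CAP3 assembled the rest with no genome. The submitters' processing notes name DESeq, with no version. Which read mapper, counting settings and strand rule were used is not given in the sources used here. Each deposited RPKM value equals count over length and library total, within a relative difference of 3.42e-07. There was no genome, so unigenes have no position, and no sequence was used.

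Counts were fitted with edgeR 4.0.16 (glmQLFit and glmQLFTest, robust, TMM, filterByExpr) in R 4.3.3, over all 15 libraries and 5 groups, which left 34131 unigenes. The package limma 3.58.1 was loaded beside edgeR, and no limma model was fitted. DESeq2 1.42.0 was an alternative. A unigene was called at a Benjamini-Hochberg adjusted p under 0.05 over all tested. The fit was tested on simulated data. Likeness was Pearson's r of log2(CPM + 0.5), without a test.

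The members and lists were chosen with earlier results of these data known. List membership went by words in the annotation of unigenes with an animal best hit, arthropod or not. Named were all members, other unigenes of the same enzymes, the most abundant tested unigene of each enzyme in the first 2 lists, the 6 most abundant enzymes of the third list and the 3 unigenes most like each member. Libraries of a group differed by more than sampling noise, and the labels call them biological replicates, each a pool of animals. RPKM rests on library totals without TMM scaling. Ratios within a library do not depend on scaling. The alternatives tried were other scalings, filters, samples in the fit, the replicate number as a block, DESeq2, deposited RPKM and leaving out each library.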

Additional observations from a re-analysis of the deposited data

How the results depend on the processing

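The members kept their direction at the 3 successive transitions under every alternative run that gave a value; 13_Contig_14021 did not pass the filter of at least 10 CPM in 3 libraries and has no value there. Leaving out single libraries gave, for 13_Contig_14021, 13_Contig_6703, 4-hydroxyphenylpyruvate dioxygenase (13_Contig_4912) and homogentisate 1,2-dioxygenase (13_Contig_8067), log2 changes of -1.80 to -1.22, -1.04 to -0.66, -2.82 to -1.70 and -2.37 to -1.55 between larval stages. Into the subimago they were -3.21 to -2.35, -2.46 to -2.13, -3.96 to -2.65 and -4.52 to -3.71, and into the imago 3.13 to 3.79, 3.26 to 3.39, 4.40 to 4.60 and 5.43 to 5.65.

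With library totals alone 13_Contig_6703 had log2 changes of -1.43 (mature against young larva), 3.47 (imago against subimago) and -3.45 (subimago against young larva), with deposited RPKM -1.43, 3.47 and -3.45, and with library totals without the most abundant unigene -1.40 (mature against young larva) and 1.52 (imago against mature larva). With TMM on arthropod hits, subimago against young larva was -3.61, -5.93 and -6.55 for 13_Contig_6703, 13_Contig_4912 and 13_Contig_8067, and imago against young larva was -1.36 for 13_Contig_14021 and -0.41, -1.52 and -1.09 for the same 3. With at least 10 CPM in 3 libraries these 3 had -3.87, -6.19 and -6.81, and -0.63, -1.74 and -1.33. The rise of 13_Contig_3553 between larval stages was -0.042 with library totals alone and -0.021 with totals without the most abundant unigene. In each case the cause was not tested beyond the scaling shift, and the stricter filter changes the set from which scaling is computed.

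Of the aromatic chain list, the 1 that rose between larval stages became 0 with library totals alone, with totals without the most abundant unigene, with the stricter filter and with only the 2 groups compared. The 1 that fell became 2 with TMM on arthropod hits, totals without the most abundant unigene, the stricter filter and DESeq2, and 0 with no filter and with only the 2 groups compared. Into the subimago, 1 in place of 0 rose with totals without the most abundant unigene, and the 1 that fell became 0 with both kinds of totals. Into the imago the 1 that rose became 2 with DESeq2 size factors, DESeq2 and only the 2 groups compared, and 0 with both kinds of totals and with no filter. Leaving out single libraries gave 1 to 2 that rose and 0 to 1 that fell between larval stages, 0 to 1 and 0 to 1 into the subimago and 0 to 1 that rose into the imago.

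Of the tanning and amine list, the 5 that rose between larval stages became 1 with the stricter filter and 2 with only the 2 groups compared, and the 14 that fell became 4 with no filter and 5 with only the 2 groups compared (6 to 26 over left-out libraries). Into the subimago the 7 that rose became 3 with no filter (4 to 8 over left-out libraries), and the 7 that fell became 4 without the mixture and 1 with no filter and with only the 2 groups compared (1 to 10 over left-out libraries). Into the imago the 1 that rose became 2 without the mixture and with DESeq2, 3 with only the 2 groups compared and 0 with both kinds of totals (0 to 3 over left-out libraries).

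Of the list of other amino acids, the 2 that rose between larval stages became 0 with both kinds of totals and 1 with the stricter filter and with only the 2 groups compared. Into the subimago the 1 that rose became 3 without the mixture, with DESeq2 and with library totals, 2 with DESeq2 size factors, 5 with totals without the most abundant unigene and 0 with either filter alternative and with only the 2 groups compared (0 to 2 over left-out libraries). The 5 that fell became 3 with both kinds of totals (2 to 7 over left-out libraries). Into the imago the 6 that rose became 11 with DESeq2 and 12 with only the 2 groups compared (4 to 8 over left-out libraries), and 1 in place of 0 fell with TMM on arthropod hits and with the stricter filter.

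The labels number libraries 1 to 3 in each group, but do not say that a number marks a shared batch, and deviations of same-numbered libraries from their group means correlated from -0.32 to 0.65, so the numbers were not taken to pair the libraries. With the replicate number as a block, the tanning unigenes that fell into the subimago became 2 in place of 7 and the aromatic chain unigene that rose into the imago 0 in place of 1; other list counts stayed within 1.5 times. Depth limits most the subimago values of 13_Contig_14021 and 13_Contig_8067, with 42 and 63 reads in 3 libraries.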
